A study of Mus musculus with 3 samples.

Results

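Gata4, Gata6, Tbx20, Hand1, Hand2, Foxc1, Foxc2, Meis1 and Meis2 encode transcription factors that act in the embryonic outflow tract, and their expression was followed in the adult mouse ascending aorta. The 9 genes were found by their symbols, each matching a single row of the feature lists, among 32285 genes measured, and all 9 had unique molecular identifier (UMI) counts in every library. Single cells of the ascending aorta were profiled with 10x Genomics 3′ chemistry in 1 library per condition, and all mice were males on a C57BL/6J background taken at postnatal day 45. The WT library pooled 3 mice with normal Fbn1. The mgR library pooled 3 Fbn1mgR/mgR mice, a Marfan syndrome model with aneurysm of the thoracic aorta, in which both copies of Fbn1, the gene of the extracellular matrix protein fibrillin-1, are hypomorphic. The mgR-LOS library pooled 4 Fbn1mgR/mgR mice given losartan, a blocker of the angiotensin II type 1 receptor, at 0.6 g/L in drinking water from postnatal day 16. The labels do not say whether the mgR mice drank a vehicle, and the mgR library serves in the comparison with WT as well as in that with mgR-LOS. With 1 pooled library per condition there was no test between conditions: every interval below is a 95% interval of counting error only, and mouse-to-mouse spread could not be measured.

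The outflow tract is the embryonic vessel that is divided into the ascending aorta and the pulmonary trunk. Its smooth muscle arises from cardiac mesoderm of the heart fields and from the cardiac neural crest, and its endocardium forms cushions whose mesenchyme becomes valve and root tissue. GATA4 and GATA6 are zinc finger proteins of cardiac mesoderm, TBX20 is a T-box protein of the heart and its cushions, HAND1 and HAND2 are basic helix-loop-helix proteins, FOXC1 and FOXC2 are forkhead proteins needed for remodelling of the aortic arch, and MEIS1 and MEIS2 are homeodomain proteins of the TALE class.

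After filtering, 5361 WT, 8076 mgR and 12721 mgR-LOS barcodes were kept, with a median of 13636, 12410.5 and 8334 UMIs. Fbn1 stood at 361 counts per 1000000 UMIs (CPM) in WT against 150.1 in mgR and 117 in mgR-LOS. Between 11 and 34 kept barcodes were shared by any pair of libraries. Barcodes were sorted by marker panels that contain none of the 9 genes. They gave 3723, 3384 and 8310 smooth muscle cell-like (SMC-like) barcodes in WT, mgR and mgR-LOS, 1262, 2214 and 2844 fibroblast-like barcodes, and 101, 202 and 150 endothelial cell-like (EC-like) barcodes. Every marker of these 3 panels was highest in its own class in each library and none was at 0. Within classes, subtypes were named by their panel genes, such as Comp/Chad/Fmod fibroblasts, and barcodes below every subtype panel were called other. Levels are UMIs of the gene divided by all UMIs of the population and scaled to CPM, and they are compared across populations for the same gene, not between genes. For the share of barcodes with a UMI, each barcode was thinned to 3000 UMIs.

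Most SMC-like, fibroblast-like and EC-like barcodes carried UMIs of these genes, and few immune-like barcodes did. At 3000 UMIs per barcode, at least 1 of the 9 genes was seen in 75.5%, 79.0% and 79.98% of SMC-like barcodes (WT, mgR and mgR-LOS), in 79.4%, 77.1% and 79.8% of fibroblast-like barcodes, and in 73.6%, 69.0% and 72.1% of EC-like barcodes. Immune-like barcodes, which can show RNA that was free in the droplets, gave 2.73%, 4.92% and 6.71%. The highest level of any of the 9 genes in immune-like barcodes was 6.01 CPM, for Gata6 in mgR. As a share of the whole-library level in immune-like barcodes, the median of the 8 genes other than Hand1 was 1.03%, 4.52% and 4.2%. For 6 smooth muscle and fibroblast markers the median was 1.98%, 3.36% and 3.81%. The highest of the 8 genes reached 5.05%, 6.37% and 14.9%, the last for Meis1 on 20 UMIs. The highest marker reached 13.8%, 5.83% and 9.16%. Whether these UMIs were free RNA or came from the immune cells was not tested. The median UMI count of immune-like barcodes was 8596.5, 8129.5 and 6660 before thinning, against 14334, 14962.5 and 8583 in SMC-like barcodes.

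Tbx20 and Hand2 were, with Gata4, the genes that stood highest among named fibroblast subtypes in Comp/Chad/Fmod fibroblasts, and the 250 bases upstream of the RefSeq start of both are shown for this reason. RefSeq promoters on build GRCm38.p6 were given for 5 of the 9 genes, namely Tbx20, Hand2, Foxc1, Meis1 and Meis2. The Tbx20 stretch lies on the minus strand at chr9:24774304-24774553, directly before the gene's first base, and the Hand2 stretch on the plus strand at chr8:57320733-57320982, also directly before the annotated start. Capitals mark matches on either strand to 5 motifs: the GATA motif, in the form TGATAA or in the form with the letters AGATAA, the MEIS motif written as TGACAG, the T-box motif searched here as AGGTGT, the E-box bound by HAND proteins as CATCTG, and the forkhead motif in the form TAAACA.
Tbx20: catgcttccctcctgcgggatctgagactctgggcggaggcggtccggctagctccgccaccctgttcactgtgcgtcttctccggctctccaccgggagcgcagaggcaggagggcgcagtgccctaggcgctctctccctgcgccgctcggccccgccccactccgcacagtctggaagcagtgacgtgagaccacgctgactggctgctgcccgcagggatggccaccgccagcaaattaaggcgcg
Hand2: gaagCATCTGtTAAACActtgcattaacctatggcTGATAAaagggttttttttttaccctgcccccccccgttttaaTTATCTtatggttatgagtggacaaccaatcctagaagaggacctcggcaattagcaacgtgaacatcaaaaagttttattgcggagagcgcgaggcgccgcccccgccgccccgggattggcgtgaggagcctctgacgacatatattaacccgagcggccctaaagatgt

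The Hand2 stretch held 2 GATA matches, 1 HAND E-box match and 1 forkhead match, with 49.2% G and C. The Tbx20 stretch held no match to any of the 5 motifs, with 68.8% G and C. Among 32851 promoters of the same length, 16.6% held a GATA match, 15.9% a MEIS match, 11.8% a T-box match, 14.4% a HAND E-box match and 12.0% a forkhead match. A match is a run of letters and not a measured site.

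All 9 genes were seen in smooth muscle cells and in fibroblasts. Gata4 and Tbx20 were at least 2-fold higher in fibroblast-like than in SMC-like sums in each of the 3 libraries, 2 of 9 genes against 16.9% of all genes tested, a share near that of all genes. No gene of the 9 was at least 2-fold higher in SMC-like sums in each library, against 7.25% of all genes, and none was so in EC-like sums over both other classes, against 6.74%. Among 47 related regulators of the heart fields, neural crest, epicardium and mesenchyme, 43 could be tested. Of these, 15 were higher in fibroblast-like sums by the same rule, among them Sox9, Tcf21, Twist1 and Prrx1, and 6 were higher in SMC-like sums, among them Myocd, a coactivator of smooth muscle genes, with Mef2c, Srf and Hey2.

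Tbx20 stood at 236 CPM in fibroblast-like sums of WT, 172 of mgR and 214 of mgR-LOS, against 27.3, 58.0 and 56.5 CPM in SMC-like sums. The class levels did not overlap, and the fibroblast level was 8.66 (8.13 to 9.22), 2.96 (2.83 to 3.1) and 3.79 (3.64 to 3.95) times the SMC level. Gata4 stood at 29.2, 24.2 and 29.8 CPM in fibroblast-like sums against 5.07, 5.69 and 7.79 CPM in SMC-like sums. Its ratio was 5.75 (4.92 to 6.73) in WT, 4.26 (3.70 to 4.90) in mgR and 3.83 (3.43 to 4.28) in mgR-LOS. At 3000 UMIs, Gata4 was seen in 1.36%, 1.52% and 2.21% of SMC-like barcodes and in 7.50%, 6.64% and 7.98% of fibroblast-like barcodes, against 0 of 110, 0.0724% and 0.160% of immune-like barcodes.

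Gata6 was a gene of all 3 classes. It stood at 120.4, 97.0 and 128 CPM in SMC-like sums, at 162, 123 and 156 CPM in fibroblast-like sums and at 197, 117 and 160.2 CPM in EC-like sums of WT, mgR and mgR-LOS. The mgR library was the lowest in each class. Meis2 stood at 63.0, 52.9 and 90.2 CPM in SMC-like sums and at 112, 107 and 149 CPM in fibroblast-like sums. Meis1, a cofactor of HOX proteins, stood at 21.4, 21.2 and 26.2 CPM in SMC-like sums and at 36.8, 29.6 and 33.4 CPM in fibroblast-like sums. Meis1 was at 7.28, 5.84 and 9.18 CPM in EC-like sums, where it rested on 6 to 11 UMIs.

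Foxc1 and Foxc2 were higher in SMC-like than in fibroblast-like sums. Foxc1 stood at 122, 143 and 137 CPM in SMC-like sums and at 85.2, 101 and 77.0 CPM in fibroblast-like sums. Foxc2 stood at 40.1, 52.7 and 38.7 CPM against 25, 27.9 and 19.8 CPM. These 2 classes did not overlap for either gene, though neither ratio reached 2-fold in any library. In EC-like sums Foxc2 was higher still, at 1.48 (1.09 to 1.97), 1.32 (1.09 to 1.58) and 1.72 (1.36 to 2.15) times its SMC level. Foxc1 in EC-like sums was 1.04, 0.695 and 0.997 times its SMC level. Hand2 stood at 84.7, 91.9 and 102 CPM in SMC-like sums and at 81.5, 84.2 and 76.5 CPM in fibroblast-like sums, 2 ranges that almost touched. Hand1, the paralog of Hand2, was at most 3.91 CPM in any population and had 0 UMIs in EC-like barcodes of every library, which allows a level of up to 3.64 CPM in WT, 1.75 in mgR and 2.5 in mgR-LOS.

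**Figure D1:**
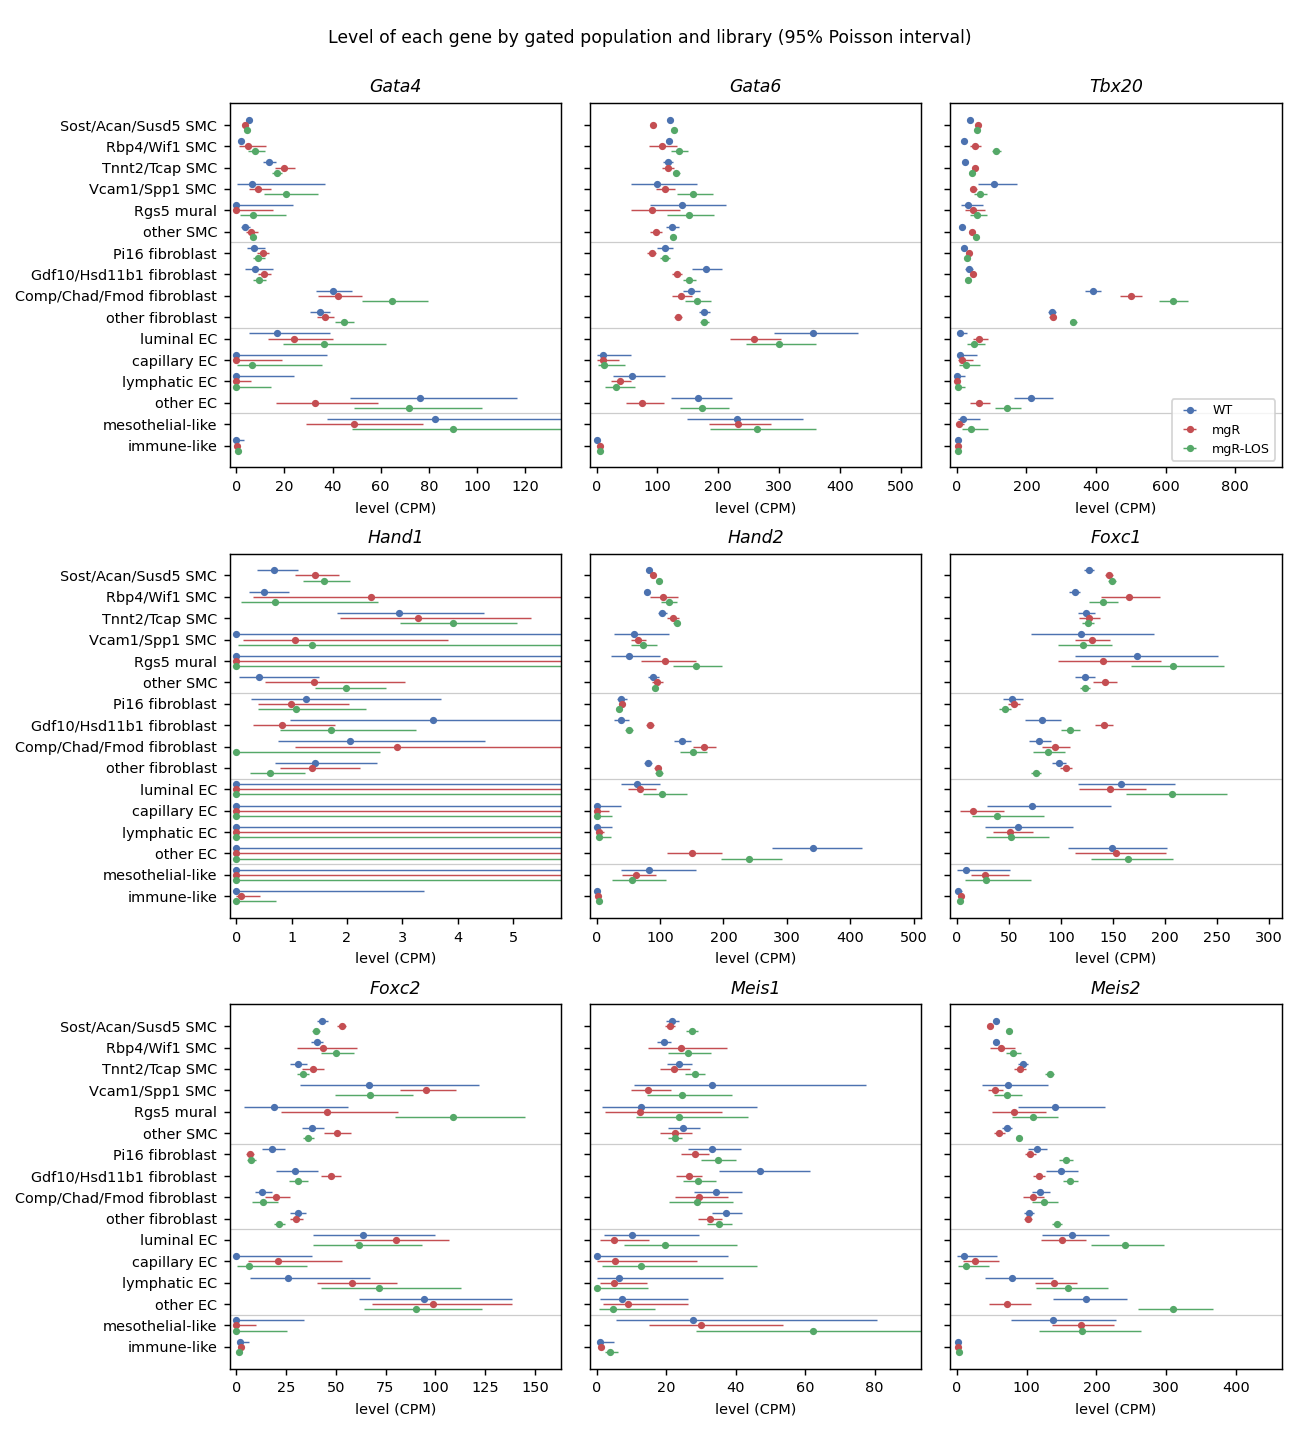
Level of each of the 9 genes (horizontal axes, CPM, a separate linear scale for each gene) in 16 gated populations of the WT, mgR and mgR-LOS libraries, with bars for 95% Poisson intervals of counting error, cut off at the right edge where they are longer than the axis. Tbx20 is highest in Comp/Chad/Fmod fibroblasts and Gata6 in luminal EC in each library, and immune-like barcodes reach at most 6.01 CPM.

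The fibroblast subtypes differed in Tbx20, Gata4 and Hand2. Comp, Chad and Fmod encode matrix proteins typical of tendon, cartilage and valve-like tissue, and fibroblasts gated by them (194, 146 and 147 barcodes) held more of these genes than Pi16 fibroblasts (220, 513 and 574) and Gdf10/Hsd11b1 fibroblasts (116, 590 and 648). These 3 of 9 genes were at least 2-fold higher in Comp/Chad/Fmod fibroblasts than in both other named subtypes in each library, against 2.85% of all genes. Fibroblasts below every panel were not part of this rule. The same rule called 4 of 40 related regulators, among them Sox9 and Tcf12. With a fold of 1.5, an alternative chosen after seeing the data, the count was 3 of 9, and with a fold of 3 it was 2 of 9, without Hand2. It was also 2 of 9 under both other mitochondrial limits, with at least 200 genes per barcode and no upper limit, and with a looser gate margin. The share of all genes at these other settings is not given here, so these counts have no background beside them. In Comp/Chad/Fmod fibroblasts a list of 5 cartilage-type genes summed to 199, 1062 and 133 CPM in WT, mgR and mgR-LOS. The highest of the list in mgR was Col2a1, at 792 CPM. The part of cartilage-type cells in the values of this subtype, within and between libraries, was not tested.

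Tbx20 stood at 390.4, 499.6 and 623 CPM in Comp/Chad/Fmod fibroblasts of WT, mgR and mgR-LOS, at 19.8, 34.6 and 30.01 CPM in Pi16 fibroblasts and at 34.6, 46.3 and 31.0 CPM in Gdf10/Hsd11b1 fibroblasts. The ratio to Pi16 fibroblasts was 19.7 (14.7 to 27.0), 14.4 (12.6 to 16.7) and 20.7 (17.6 to 24.6). Fibroblasts below every subtype panel came next, at 273, 275 and 335 CPM, and the ranges of the 2 populations did not overlap. As the larger population, the fibroblasts below every panel held 2120, 3201 and 3895 of the 3342, 4818 and 5108 fibroblast-like Tbx20 UMIs, and Comp/Chad/Fmod fibroblasts 1136, 1035 and 883. Gata4 stood at 40.2, 42.5 and 64.9 CPM in Comp/Chad/Fmod fibroblasts, at 7.58, 11.1 and 9.17 CPM in Pi16 fibroblasts and at 7.99, 11.5 and 9.30 CPM in Gdf10/Hsd11b1 fibroblasts. In fibroblasts below every panel Gata4 ranged from 34.7 to 44.8 CPM, which overlapped the Comp/Chad/Fmod range. Over the 3 libraries these fibroblasts held 1220 Gata4 UMIs and Comp/Chad/Fmod fibroblasts 297.

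Hand2, whose upstream stretch with 2 GATA matches is shown above, stood at 135, 169 and 152 CPM in Comp/Chad/Fmod fibroblasts. It was 3.45 (2.74 to 4.37), 4.30 (3.66 to 5.05) and 4.30 (3.53 to 5.25) times its level in Pi16 fibroblasts. Against Gdf10/Hsd11b1 fibroblasts the ratio was 3.54 (2.58 to 4.97) in WT, 2.02 (1.76 to 2.30) in mgR and 2.95 (2.45 to 3.54) in mgR-LOS, so the mgR value lay at the threshold. In fibroblasts below every panel Hand2 ranged from 80.8 to 98.5 CPM.

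Foxc2 went the other way. It stood at 13.1, 19.8 and 13.4 CPM in Comp/Chad/Fmod fibroblasts against 29.3, 47.4 and 31.1 CPM in Gdf10/Hsd11b1 fibroblasts, and was the only gene of the 9 at least 2-fold higher in the latter in each library, against 4.98% of all genes. In Pi16 fibroblasts it was at 18.1, 6.66 and 7.37 CPM, and no gene of the 9 was at least 2-fold higher in Pi16 than in Comp/Chad/Fmod fibroblasts in each library, against 6.75%. Tcf21, a factor of epicardium-derived fibroblasts, and Twist2 were likewise higher in Gdf10/Hsd11b1 fibroblasts, among 9 of 39 related regulators. Tcf21 ranged from 146 to 233 CPM there and from 30.3 to 51.6 CPM in Comp/Chad/Fmod fibroblasts. Sox9, the master regulator of cartilage formation, ranged from 305 to 361 CPM in Comp/Chad/Fmod fibroblasts and from 45.3 to 70.3 CPM in Gdf10/Hsd11b1 fibroblasts. Meis1 did not separate the fibroblast subtypes, and its ranges overlapped between neighbours throughout.

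**Figure D2:**
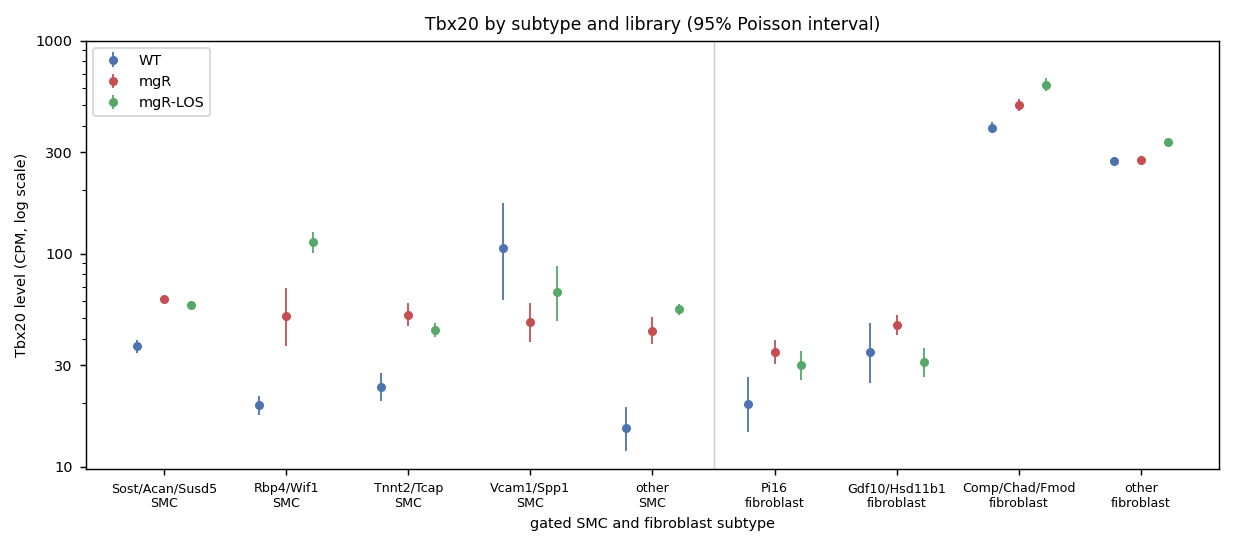
Tbx20 level (vertical axis, CPM, log scale) in 5 SMC and 4 fibroblast subtypes of the 3 libraries, with 95% Poisson intervals of counting error. Comp/Chad/Fmod fibroblasts lie between 390.4 and 623 CPM, and WT is the lowest library in 4 of the 5 SMC populations shown.

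Gata4, Hand2 and Gata6 were seen more often in fibroblast-like barcodes with Tbx20 than in those without. At 3000 UMIs, Gata4 was seen in 16.5% (12.6 to 21.1), 18.2% (14.8 to 22.0) and 18.5% (15.6 to 21.6) of fibroblast-like barcodes with a Tbx20 UMI in WT, mgR and mgR-LOS. Among those without, it was seen in 4.19%, 3.46% and 4.32%. Hand2 was seen in 30.5%, 28.4% and 32.3% of the barcodes with a Tbx20 UMI and in 14.3%, 17.3% and 12.9% of the rest. Gata6, which did not separate the fibroblast subtypes by 2-fold, was seen in 40.6%, 36.6% and 43.9% against 32.0%, 25.8% and 32.1%, with intervals apart in mgR and mgR-LOS. Hand2 was seen in 36.4%, 25.4% and 31.4% of the barcodes with a Gata4 UMI and in 17.2%, 19.3% and 16.8% of the rest, with overlapping intervals in mgR. Foxc1 was seen less often with Tbx20, at 21%, 19.5% and 15.3% against 22.2%, 25.7% and 20.1%. Its intervals overlapped in WT and were narrowly apart in mgR and mgR-LOS. In SMC-like barcodes of mgR the share with Hand2 was 23.9% with a Tbx20 UMI and 24.0% without, and the intervals of these shares overlapped in all 3 libraries. Cells of a library share the pooled animals, so these intervals cover counting only. The fibroblast subtypes were pooled here, and Tbx20, Gata4 and Hand2 all differed between them. The part of subtype makeup in these shares was not tested.

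**Figure D3:**
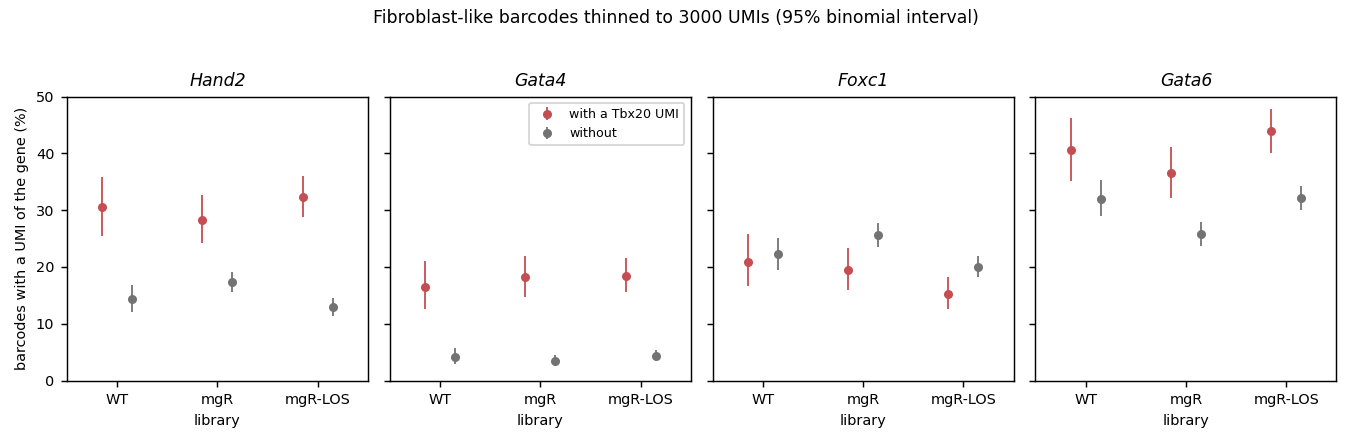
Share of fibroblast-like barcodes with a UMI of Hand2, Gata4, Foxc1 or Gata6 (vertical axis, %) among barcodes with a Tbx20 UMI (red) and without (grey), for each library after thinning to 3000 UMIs, with exact binomial 95% intervals. The red intervals for Hand2 and Gata4 lie above the grey ones in every library, and those for Foxc1 do not.

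Among smooth muscle cells, the Tnnt2/Tcap subtype held more Gata4 and Hand1 than the Sost/Acan/Susd5 subtype. Tnnt2 and Tcap encode sarcomere proteins of striated muscle, and 532, 356 and 1641 SMC-like barcodes fell in this gate. Gata4 stood at 13.7, 19.9 and 16.8 CPM there, against 5.17, 3.69 and 4.55 CPM in Sost/Acan/Susd5 SMCs (1536, 2418 and 3890 barcodes), a ratio of 2.64 (2.0 to 3.49), 5.38 (4.11 to 7.02) and 3.69 (3.02 to 4.52). Hand1 stood at 2.93, 3.28 and 3.91 CPM against 0.675, 1.42 and 1.59 CPM, from 16 to 56 UMIs in Tnnt2/Tcap SMCs. Among fibroblasts its range in the Gdf10/Hsd11b1 subtype, 0.822 to 3.55 CPM on 4 to 9 UMIs, overlapped that of Tnnt2/Tcap SMCs. Gata4 and Hand1 were thus 2 of 9 genes at least 2-fold higher than in Sost/Acan/Susd5 SMCs in each library, against 1.09% of all genes, and none was at least 2-fold lower, against 0.599%. In Rbp4/Wif1 SMCs Gata4 was at 1.95, 4.85 and 7.79 CPM. In Vcam1/Spp1 SMCs Gata4 ranged from 6.64 to 20.6 CPM on 33 UMIs in all, which overlapped the range of Tnnt2/Tcap SMCs.

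Meis2 and Hand2 were also higher in Tnnt2/Tcap SMCs, by less than 2-fold. Meis2 stood at 94.7, 90.6 and 133 CPM against 55.4, 46.7 and 75.3 CPM, a ratio of 1.71 (1.55 to 1.88), 1.94 (1.74 to 2.15) and 1.76 (1.66 to 1.87). Of 40 related regulators tested, 2 passed the 2-fold rule, Tcf21 and, named after its values were seen, Nkx2-5, a cardiac homeobox gene that ranged only from 1.26 to 4.92 CPM. A list of 8 heart muscle genes, chosen after values were seen, summed to 173, 122 and 128 CPM in Tnnt2/Tcap SMCs and to 101, 136 and 118 CPM in Sost/Acan/Susd5 SMCs, and Myh6, the cardiac myosin heavy chain gene, was at 5.58, 4.51 and 7.40 CPM against 2.88, 0.501 and 2.42. The highest of the 8 was Pln in Tnnt2/Tcap SMCs, at 46.5, 51.6 and 55.8 CPM, and Ryr2 in Sost/Acan/Susd5 SMCs, at 43.4, 74.6 and 54.5 CPM, so the 2 sums rest on different genes. The sum was higher in Tnnt2/Tcap SMCs in WT and mgR-LOS and lower in mgR, Myh6 was higher in all 3 libraries, and the part of heart muscle RNA in the Gata4 and Hand1 values was not tested.

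Vcam1/Spp1 SMCs, rare in WT (9 barcodes) and more frequent in mgR (138) and mgR-LOS (65), carried Foxc2 at 66.4, 95.4 and 67.2 CPM. In each library this was above Sost/Acan/Susd5 SMCs, at 43.2, 53.0 and 39.9 CPM. Foxc1 ranged from 113 CPM to 165 CPM over the smooth muscle subtypes other than Rgs5 mural cells, with both ends in Rbp4/Wif1 SMCs. In Rgs5 mural cells, which hold the pericyte markers Kcnj8 and Abcc9, Foxc1 was at 173, 140.3 and 208 CPM from 14, 26 and 56 barcodes. Gata4 had 0 UMIs there in WT and mgR, in sums of 156482 and 242409 UMIs of all genes, too few to show absence.

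Endothelial cells split by type. Luminal EC (36, 73 and 46 barcodes), gated by Clu, Gkn3, Edn1, Cytl1, Stmn2 and Sulf1, held Gata6 at 356, 258 and 299 CPM, apart from every other subtype of the 3 classes, whereas capillary EC (14, 25 and 19 barcodes) held 10.2, 10.4 and 12.8 CPM. The ratio was 34.7 (6.10 to 1384) in WT, 24.9 (6.76 to 207) in mgR and 23.4 (6.33 to 196) in mgR-LOS, on 1, 2 and 2 UMIs in capillary EC. Gata6, Gata4, Hand2, Foxc1, Foxc2 and Meis2, 6 of the 7 genes that could be tested, had a ratio of at least 2 over capillary EC in each library, against 7.72% of all genes. The capillary sums rest on 0 to 7 UMIs for each gene and library. The lower bound of the ratio stayed above 2 in all 3 libraries for Gata6 and Meis2 only. Hand2 in every library, Gata4 in WT and mgR, and Foxc2 in WT passed with 0 UMIs in capillary EC. A gene with 0 UMIs there passes at any luminal level, so the count of 6 cannot be read as an enrichment over all genes. Hand2 had 0 UMIs in capillary EC of every library, which allows 30.7, 15.6 and 19.1 CPM, and was at 63.8, 68.4 and 103 CPM in luminal EC.

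At 3000 UMIs, at least 1 of the 9 genes was seen in 88.2%, 86.4% and 83.7% of luminal EC and in 18.2%, 15.8% and 11.8% of 11, 19 and 17 capillary EC. No gene of the 9 was at least 2-fold higher in capillary than in luminal EC, against 5.3% of all genes, and none was so in luminal EC over both SMC-like and fibroblast-like sums, against 4.3%. Isl1, a marker of heart field progenitors, ranged from 67.1 to 90.6 CPM in luminal EC and was higher there than in capillary EC by the same rule, as were Twist1 and Hey2 among 7 of 24 related regulators. Lymphatic EC (19, 67 and 31 barcodes) had 0, 0 and 1 UMI of Tbx20 and no UMI of Gata4. Their sums held 152873, 602255 and 251849 UMIs of all genes, so a count of 0 does not show absence. Lymphatic EC held Foxc2, a factor of lymphatic valves, at 26.2, 58.1 and 71.5 CPM, and Meis2 at 78.5, 139 and 159 CPM.

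EC-like barcodes below every subtype panel (32, 37 and 54) formed a further group, in which Hand2 was at 341, 149.6 and 241 CPM. Hand2 was the only gene of the 9 at least 2-fold higher there than in luminal EC in each library, 1 of 8 tested against 2.78% of all genes. Gata4 was at 76.2, 32.9 and 71.8 CPM and Tbx20 at 214, 62.8 and 143.6 CPM in these barcodes. Fibroblast markers summed to 461, 284 and 486 CPM there, with 6, 6 and 7 of the 7 genes detected. The highest of them was Pdgfra in WT, at 269 CPM, and Lum in mgR and mgR-LOS, at 95.8 and 176 CPM. In luminal EC the fibroblast markers summed to 463, 436 and 523 CPM, with Tbx20 at 10.1, 65.0 and 50.3 CPM. The part of fibroblast RNA in these values was not tested.

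Mesothelial-like barcodes, 11, 29 and 18 in number, held Gata4 at 82.8, 49.1 and 89.9 CPM. Gata4 was the only gene of the 9 at least 2-fold higher there than in SMC-like and fibroblast-like sums in each library, against 4.23% of all genes. Against fibroblast-like sums its mgR value lay at the threshold. These mesothelial-like sums are small, with 108735, 366731 and 144541 UMIs of all genes. Gata6 ranged there from 230 to 263 CPM, and Foxc2 had 0 UMIs in every library. Tbx18, a factor of the embryonic epicardium, ranged from 153 to 221 CPM in the same barcodes.

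Across the 14 SMC, fibroblast and EC subtypes of the 3 libraries (42 points that share libraries, depth and gates), genes were ranked by the Pearson correlation of log2(CPM + 1) with each of the 9. Among the 9 genes, the pairs most alike were Gata6 and Hand2 (r = 0.84), Gata4 and Tbx20 (r = 0.76) and Foxc1 and Hand2 (r = 0.75). Tbx20 was least like Foxc2 (r = 0.05). Over 12674 genes, Apcdd1, Ccdc80 and 5033428I22Rik were nearest to Tbx20 (r = 0.85 to 0.82), Tubb3, Epha7 and Wnk4 to Gata4 (r = 0.83 to 0.77) and Setbp1, Gxylt2 and Efna5 to Gata6 (r = 0.88 to 0.87). Hand2 was nearest to Hand2os1 (r = 0.89), then 5033428I22Rik and Epdr1. Hand2os1 lies on the opposite strand and overlaps Hand2. It stood at 40.5, 41.5 and 48.1 CPM in SMC-like sums and at 84.7, 64.4 and 62.0 CPM in fibroblast-like sums. Whether reads were counted by strand is not given in the sources used here, so their values may not be fully separate. Foxc1 was nearest to Hey2 (r = 0.81), Cpe and Specc1, Foxc2 to Serpinb6b (r = 0.82), Gipc1 and Ocrl, Meis1 to Sspn (r = 0.90), Arhgef25 and Rab34, Meis2 to Poglut3 (r = 0.84), Sec63 and Dapk1, and the sparse Hand1 to Aldh1l2 (r = 0.76), Vnn1 and Pwwp3b.

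The comparison of mgR with WT asked how the 9 genes stood in diseased aorta. In SMC-like sums Tbx20 and Hand1 were higher in mgR, 2 of 9 genes past 1.5-fold, against 21.7% of all genes past it either way and 12.5% upward. Tbx20 stood at 27.3 CPM (25.9 to 28.7) in WT and 58.0 CPM (55.9 to 60.1) in mgR, a ratio of 2.13 (2.0 to 2.27). After thinning, a Tbx20 UMI was present in 7.70% of WT and 14.8% of mgR SMC-like barcodes, against 0 of 110 and 0.651% of immune-like barcodes. Hand1 stood at 0.896 and 1.60 CPM, a ratio of 1.78 (1.23 to 2.62) from 47 and 80 UMIs. The remaining 7 genes had ratios from 0.805 for Gata6 to 1.31 for Foxc2.

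The Tbx20 difference was present within subtypes. It was 1.66 (1.53 to 1.80) in Sost/Acan/Susd5 SMCs, 2.19 (1.79 to 2.67) in Tnnt2/Tcap SMCs, 2.62 (1.86 to 3.62) in Rbp4/Wif1 SMCs and 2.87 (2.18 to 3.82) in SMCs below every panel. In Rbp4/Wif1 SMCs, 1270 barcodes in WT and 79 in mgR, fibroblast markers summed to 3685 and 6473 CPM and 5.12% and 24.1% of barcodes were called doublets. Col1a2 alone was at 2338 and 3450 CPM there. In SMCs below every panel the sums were 3679 and 4899 CPM and the doublet shares 3.87% and 15.5%. The number of doublets called per library was preset from its barcode count. It was 4.29%, 6.46% and 10.2% of all kept barcodes in WT, mgR and mgR-LOS. In the few Vcam1/Spp1 SMCs the direction was opposite, at 0.449 (0.262 to 0.819) with 16 UMIs in WT. The 7 fibroblast markers, all detected, summed to 3479, 4412 and 3473 CPM in SMC-like sums of WT, mgR and mgR-LOS, and 5.29%, 11.6% and 13.0% of their barcodes were called doublets. The highest of the 7 was Col1a2, at 2179, 2475 and 2056 CPM, so these sums rest largely on a single collagen gene. With called doublets removed the Tbx20 ratio was 2.24, and it was 2.05 after thinning. The part of fibroblast RNA in these ratios was not tested.

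In fibroblast-like sums, 0 of 9 genes passed 1.5-fold between mgR and WT, against 20.5% of all genes. The lowest ratio was that of Tbx20, 0.728 (0.696 to 0.761), with Comp/Chad/Fmod barcodes at 15.4% of fibroblast-like barcodes in WT and 6.59% in mgR. Within Comp/Chad/Fmod fibroblasts the ratio was 1.28 (1.18 to 1.39), within those below every panel 1.01 (0.952 to 1.06), and with subtypes weighted alike in both libraries 1.11. The genes past 1.5-fold differed among the subtypes. Gdf10/Hsd11b1 fibroblasts were 9.19% of fibroblast-like barcodes in WT and 26.6% in mgR. In this subtype 4 of the 8 genes tested passed 1.5-fold, against 27.9% of all genes. Hand2 stood at 38.1 CPM in WT and 84.0 CPM in mgR, a ratio of 2.20 (1.62 to 3.07), with Foxc1 at 1.73 (1.40 to 2.17), Foxc2 at 1.62 (1.13 to 2.39) and Meis1 at 0.562 (0.413 to 0.777). In Pi16 fibroblasts 2 of 8 passed, against 21% of all genes. These were Tbx20, at 1.75 (1.27 to 2.44), and Foxc2, at 0.368 (0.238 to 0.57), from 18.1 CPM in WT to 6.66 CPM in mgR. The Foxc2 ratio of Pi16 fibroblasts was thus opposite in direction to that of Gdf10/Hsd11b1 fibroblasts, and the difference was not tested. Meis2 was within 1.5-fold in all 4 fibroblast populations.

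In EC-like sums 4 of the 7 genes that could be tested were lower in mgR, against 21.9% of all genes past 1.5-fold either way and 8.03% downward. Hand2 stood at 137 CPM in WT and 53.7 CPM in mgR, a ratio of 0.391 (0.294 to 0.520). Gata4 had a ratio of 0.462 (0.256 to 0.833), Tbx20 of 0.473 (0.328 to 0.683) and Gata6 of 0.597 (0.483 to 0.738). The makeup of the class moved too. Lymphatic EC, with little of these genes, made up 18.8% of the EC-like class for WT and 33.2% for mgR, and those below every panel, with the most Hand2, were 31.7% and 18.3%. With subtypes weighted alike the ratio of Hand2 was 0.55, that of Gata4 0.623 and that of Tbx20 was 0.606. In the EC-like barcodes below every panel, 5 of 7 genes were past 1.5-fold, all lower in mgR, against 31.6% of all genes either way. These were Gata4, Gata6, Tbx20, Hand2 and Meis2, with ratios from 0.293 (0.169 to 0.49) for Tbx20 to 0.448 (0.264 to 0.745) for Gata6. These calls depended on the processing. After thinning the Gata6 ratio was 0.876, and with at most 5% mitochondrial UMIs that of Gata4 was 0.708 and that of Hand2 0.677, each within 1.5-fold. Within luminal EC, 1 of the 6 genes tested passed 1.5-fold, against 29.6% of all genes. This was Tbx20, which was higher in mgR at 6.45 (2.05 to 32.7) on 3 UMIs in WT.

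Of the related regulators, 9 of 40 tested passed 1.5-fold between mgR and WT in SMC-like sums, 5 higher and 4 lower. In fibroblast-like sums 12 of 42 did, 6 each way, with Zfpm2, a cofactor of GATA proteins, at 31.3 CPM in WT and 58.3 CPM in mgR. In EC-like sums 6 of 22 did, and Gata2 stood at 123 and 68.9 CPM. Among all genes, 21.7%, 20.5% and 21.9% passed 1.5-fold either way in SMC-like, fibroblast-like and EC-like sums.

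**Figure D4:**
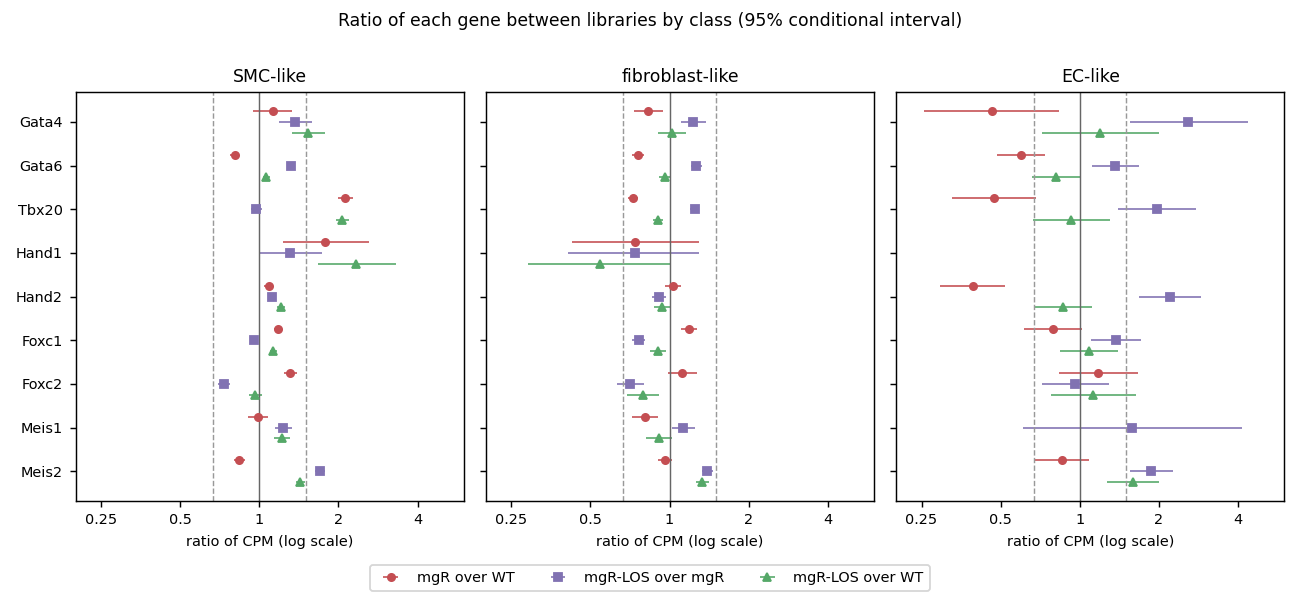
Ratio of CPM (horizontal axes, log scale) of each gene between libraries in SMC-like, fibroblast-like and EC-like sums, with 95% conditional binomial intervals of counting error, for genes with at least 20 UMIs over both sums. The dashed lines mark 1.5-fold either way. Tbx20 lies near 2 for mgR and mgR-LOS over WT in SMC-like sums, and fibroblast-like ratios lie within the dashed lines except Hand1 in mgR-LOS over WT.

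The comparison of mgR-LOS with mgR asked how losartan-treated and other Fbn1mgR/mgR aortas differed. In SMC-like sums Meis2 was higher in mgR-LOS, 1 of 9 genes past 1.5-fold against 19.1% of all genes. It stood at 52.9 CPM in mgR and 90.2 CPM in mgR-LOS, a ratio of 1.70 (1.63 to 1.78). After thinning the ratio was 1.498, just under 1.5-fold, and no gene passed. The WT level, 63.0 CPM, lay between. Within Sost/Acan/Susd5 SMCs the Meis2 ratio was 1.61 (1.52 to 1.71) and within Tnnt2/Tcap SMCs 1.47 (1.32 to 1.63). Tbx20 differed little, at 0.974 (0.929 to 1.02). Foxc2 stood at 52.7 CPM in mgR and 38.7 CPM in mgR-LOS, close to the 40.1 CPM of WT.

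In fibroblast-like sums 0 of 9 genes passed 1.5-fold between mgR-LOS and mgR, against 15.2% of all genes. Meis2 had the highest ratio, 1.39 (1.32 to 1.46), and Foxc2 the lowest, 0.710 (0.632 to 0.797). Within Comp/Chad/Fmod fibroblasts Gata4 in mgR-LOS was 1.53 (1.13 to 2.07) times its mgR level. In EC-like sums 5 of the 8 genes tested were higher in mgR-LOS, against 20.6% of all genes either way and 10.3% upward. The ratio was 2.57 (1.55 to 4.38) for Gata4, 2.21 (1.69 to 2.90) for Hand2, 1.96 (1.40 to 2.77) for Tbx20, 1.86 (1.55 to 2.25) for Meis2 and 1.57 (0.607 to 4.13) for Meis1 on 21 UMIs in all. The share of EC-like barcodes below every panel was 36.0% in mgR-LOS and 18.3% in mgR, and with subtypes weighted alike the ratio of Tbx20 was 1.37. With a stricter gate margin it was 1.09, and both values are within 1.5-fold. In the barcodes below every panel 5 of 7 genes were past 1.5-fold, all higher in mgR-LOS, against 33.4% of all genes either way, with Meis2 at 71.8 CPM in mgR and 310.4 CPM in mgR-LOS. Meis2 also differed within luminal EC, at 150.5 CPM in mgR and 240.3 CPM in mgR-LOS, a ratio of 1.60 (1.17 to 2.17). Of the related regulators, 8 of 40 passed 1.5-fold in SMC-like, 7 of 40 in fibroblast-like and 12 of 25 in EC-like sums. The shares of all genes past it either way were 19.1%, 15.2% and 20.6%.

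The comparison of mgR-LOS with WT set treated mutants beside the wild type. In SMC-like sums Tbx20 at 2.07 (1.95 to 2.20), Hand1 at 2.33 (1.68 to 3.31) and Gata4 at 1.54 (1.33 to 1.78) were higher in mgR-LOS, 3 of 9 genes against 22.5% of all genes. The Gata4 value, from 5.07 CPM to 7.79 CPM, differed among the subtypes, with ratios of 0.88 (0.69 to 1.13) in Sost/Acan/Susd5 SMCs, 1.23 (0.969 to 1.57) in Tnnt2/Tcap SMCs and 3.99 (2.23 to 7.0) in Rbp4/Wif1 SMCs. In SMCs below every panel it was 1.96 (1.18 to 3.45). The makeup of the class moved as well. Rbp4/Wif1 SMCs, with 1.95 CPM of Gata4 in WT, were 34.1% of the SMC-like class for WT and 3.94% for mgR-LOS, Tnnt2/Tcap SMCs 14.3% and 19.7%, and SMCs below every panel 9.72% and 28.1%. The class ratio fell just under 1.5-fold in 3 alternatives, with subtypes weighted alike, with barcodes weighted equally and, at the lowest value of 1.49, with median of ratios scaling. Tbx20 was higher within Sost/Acan/Susd5 SMCs at 1.57 (1.45 to 1.70) and within Tnnt2/Tcap SMCs at 1.85 (1.56 to 2.20). In Rbp4/Wif1 SMCs it stood at 19.4 CPM in WT and 113 CPM in mgR-LOS. There 24.5% of mgR-LOS barcodes were called doublets, a share that depends on library size. Fibroblast markers summed to 6152 CPM against 3685 in WT. The part of doublets and fibroblast RNA in the ratio was not tested. Col1a2 made up 3109 CPM of the marker sum in mgR-LOS and 2338 CPM in WT.

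In fibroblast-like sums 1 of 9 genes passed 1.5-fold between mgR-LOS and WT, against 19.1% of all genes. This was Hand1, at 0.544 (0.291 to 1.01) from 24 and 22 UMIs, an interval that includes 1. Within Comp/Chad/Fmod fibroblasts 2 of 8 genes passed, against 24.1% of all genes. Tbx20 in mgR-LOS was 1.60 (1.46 to 1.74) times its WT level and Gata4 1.61 (1.21 to 2.14) times. In EC-like sums 1 of 7 genes passed, against 22.7% of all genes. This was Meis2, at 137 CPM in WT and 219 CPM in mgR-LOS, a ratio of 1.59 (1.27 to 2.01), and of 1.43, within 1.5-fold, with at least 200 genes per barcode and no upper limit. Of the related regulators, 14 of 41 passed 1.5-fold in SMC-like, 15 of 41 in fibroblast-like and 8 of 24 in EC-like sums. The shares of all genes past it either way were 22.5%, 19.1% and 22.7%. Prrx1, a factor of limb and vessel mesenchyme, was among those higher in SMC-like sums, at 57.0 CPM in WT, 72.7 CPM in mgR and 93 CPM in mgR-LOS. The median ratio over all genes lay within 0.09 log2 units of no difference in each of the 9 comparisons of the 3 classes.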

How the data were processed

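The authors deposited filtered matrices of raw UMI counts, 1 row per gene and 1 column per barcode, and nothing was normalised before deposit. The file headers name Cell Ranger 5.0.1 for WT and mgR and 6.0.1 for mgR-LOS, whereas the submitters' processing notes name 6.0.1 throughout. The build was GRCm38 (mm10). Per the labels each library was a pool of mice, so values have no replicate.

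Filtering kept a barcode if it held 600 to 5000 genes and no more than 10% of its UMIs were mitochondrial (83338726, 123956320 and 121436873 UMIs before filtering in WT, mgR and mgR-LOS). Each panel marker, as log level per 10000 UMIs, was divided by its percentile 99 among barcodes with a UMI. A barcode took the class with the highest mean score if that was at least 0.2, led by 0.15 and rested on 3 markers, and a subtype at a score of at least 0.3. Between 2.57% and 9.15% of barcodes per library stayed unassigned. Doublets were scored by artificial neighbours and kept in the main values. The number called per library was preset from its count of kept barcodes, so larger libraries have a larger share called. Ccl21a was left out of the lymphatic panel because its symbol matches 2 rows. Counts were summed by population and scaled to CPM, with exact Poisson, Clopper-Pearson and conditional binomial 95% intervals. Between libraries a gene was called past 1.5-fold with at least 20 UMIs over both sums, and between populations at 2-fold in each library. The reported limit of a count of 0 is 3 counts. Genes were named as members, panel genes, Fbn1, listed related regulators (29 of 47 reached 10 CPM in a class in every library) or the 3 genes most alike to each member. Myh6, Pln, Ryr2 and Col2a1 were named besides these, after their values were seen. The members and lists were chosen with earlier results of these data known. The calls were tested on simulated SMC-like and EC-like sums of mgR and WT, with planted 2-fold changes and counting error only. Variation between mice or libraries was not simulated, so that test does not cover it. Alternatives covered filters, gate margins, doublets, thinning, scaling, subtype weighting, folds and UMI minimums. Python 3.11.15, numpy 2.4.6, pandas 2.3.3, scipy 1.17.1 and scikit-learn 1.9.0 were used. The values of 1 related regulator are not reported here.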

Additional observations from a re-analysis of the deposited data

Results flagged for a closer look

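Tbx20 was higher in mgR than in WT in SMC-like sums, with a ratio of 2.13, and lower in EC-like sums, with a ratio of 0.473. Both values rest on 1 library per condition, the EC-like value on 63 UMIs in WT and 62 in mgR, and the difference between the classes was not tested. The EC-like ratio was 0.606 with subtypes weighted alike, and 0.293 in the EC-like barcodes below every panel. Within luminal EC, Tbx20 was higher in mgR, with a ratio of 6.45 on few UMIs in WT.

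Hand1 was higher in mgR-LOS than in WT in SMC-like sums, with a ratio of 2.33, and lower in fibroblast-like sums, with a ratio of 0.544. The fibroblast-like value rests on 24 and 22 UMIs, and the difference between the classes was not tested.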

How the results depend on the processing

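No paired analysis was possible because each condition is 1 pooled library. Of 828 alternative ratios of the 9 genes between libraries, 742 stayed within the interval of the reported ratio, 86 fell outside it, and no ratio past 1.5-fold changed sign. Subtype weighting (22) and thinning (19) moved the most. The Tbx20 ratio of mgR to WT ranged from 1.79 to 2.25 in SMC-like sums, and the Meis2 ratio of mgR-LOS to mgR from 1.498 to 1.76. In fibroblast-like sums the Tbx20 ratio of mgR to WT, within 1.5-fold throughout, ranged from 0.705 to 1.11. Of the counts of genes past 1.5-fold, that of mgR over WT became 1 with a fold of 2 in SMC-like sums and 2 with at most 5% mitochondrial UMIs in EC-like sums. For mgR-LOS over mgR the count became 0 after thinning or with a fold of 2 in SMC-like sums, 1 with barcodes weighted equally in fibroblast-like sums, and in EC-like sums 3 with a stricter gate margin, 3 with at least 100 UMIs and 2 with a fold of 2. For mgR-LOS over WT it became 0 in fibroblast-like sums after thinning, with at least 100 UMIs or with a fold of 2, and in EC-like sums 2 with at most 5% mitochondrial UMIs and 0 with a fold of 2. Between classes, 1 gene was higher in SMC-like sums with a fold of 1.5 in place of 0, and 1 was higher in fibroblast-like sums with a fold of 3 in place of 2. For all these alternative counts the share of all genes is not given here, so they show only how the count moved. The causes were not tested. Small EC sums and single pooled libraries limit what these values can show.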
